A study of Mus musculus with 6 samples.

Results

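The 9 genes described here, Hlf, Mecom, Meis1, Prdm16, Hmga2, Erg, Runx1, Gata2 and Etv6, encode transcription regulators of the hematopoietic stem cell state. They were chosen by symbol, not by their values, and all 9 were found among the 21878 rows listed per library. RNA was sequenced from sorted bone marrow cells of wild-type mice that carry the label LT-HSC, for the long-lived stem cells from which all blood can be regrown. The sort kept cells with c-Kit and Sca1 on their surface and without lineage antigens, CD34 or CD135, the last of which Flt3 encodes. The mice ate a serine/glycine-free diet (SGFD, 3 libraries) or a control diet (CD, 3 libraries) for 3 months. Strain, sex and age, and whether a library came from a single mouse or a pool, are not given in the sources used here, so the tests speak only of the spread between these libraries, some of which may be technical. Values are read as FPKM (fragments, corrected for gene length and for library size). The unit is inferred from the values.

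Stem cell identity in the bone marrow rests on a small set of DNA-binding proteins that keep the genes of self-renewal active and hold back those of the blood lineages. Hlf, Mecom, Prdm16 and Meis1 are best known for keeping the long-term cells quiescent and able to self-renew. Erg, Runx1 and Gata2 bind many of the same enhancers as Tal1, Lyl1, Lmo2 and Fli1, a group often called the heptad, and serve both stem and progenitor cells. Hmga2 is a chromatin-bending protein of fetal stem cells, and Etv6 is an ETS-family repressor that adult marrow stem cells need.

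All 9 genes fell with SGFD, but by very different amounts. Hmga2 fell most, with a mean of 0.823 ± 0.222 FPKM in SGFD libraries and 4.88 ± 0.303 FPKM in CD libraries (SD, n = 3 each). Hlf, Prdm16, Mecom and Meis1 came next and lost between 38.5% and 61.0% of their CD mean. Gata2 and Erg lost 29.4% and 21.3%. Etv6 and Runx1 lost 16.3% and 12.3%, and both of these falls depended on how the libraries were scaled. All 9 passed in limma after Benjamini-Hochberg adjustment over the 10620 genes tested, where 41.8% of all tested genes were lower, 17.7% were higher and 59.4% passed in either direction. For all 9 genes every SGFD value lay below every CD value, which held for 45.5% of tested genes, while 19.6% had every SGFD value above every CD value. The typical tested gene was itself lower with SGFD, at a median log2 fold change of -0.13. In bulk samples such as these, fewer cells of a type and less RNA per cell cannot be told apart.

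**Figure D1:**
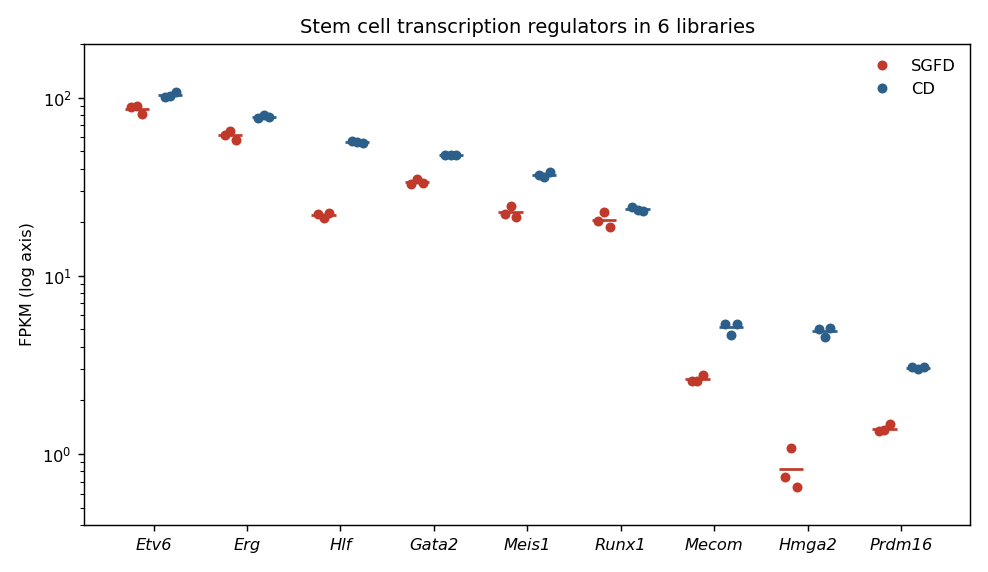
FPKM on a log axis of the 9 regulators in each library, with SGFD (red, left) and CD (blue, right) for each gene; points are libraries and bars are means of 3. No SGFD point reaches a CD point of the same gene, and the gap is widest for Hmga2, at 0.823 FPKM with SGFD and 4.88 FPKM with CD.

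Hlf encodes a leucine-zipper factor of the PAR family whose mRNA is among the most selective marks of LT-HSCs. It had 22.3, 21.1 and 22.5 FPKM in SGFD replicates 1 to 3, against 57.0, 56.2 and 55.4 FPKM in CD replicates 1 to 3. The SGFD values lay close together and far under the CD values. The mean was 2.56-fold lower with SGFD, and the log2 fold change of FPKM + 1 was -1.32 ± 0.05 (SE; 95% interval -1.42 to -1.22; limma, adjusted p = 1.60e-08). On this scale, which understates the change of low genes, it was the 18th lowest log2 fold change of the tested genes. Some low genes fell by a larger ratio and rank behind it. Whole fragments could be recovered from the values: 2445 to 2489 fragments per SGFD library and 6063 to 6338 per CD library.

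The Hlf gene lies on the minus strand at chr11:90336535-90390917 (GRCm38.p6), and its promoter is shown because it holds a full cyclic-AMP response element, the palindrome TGACGTCA that ATF and CREB family proteins can bind. The element spans positions -9 to -2 from the annotated start site and is in capitals in the 250 bases upstream, chr11:90390918-90391167 on the minus strand, from RefSeq.
Hlf promoter: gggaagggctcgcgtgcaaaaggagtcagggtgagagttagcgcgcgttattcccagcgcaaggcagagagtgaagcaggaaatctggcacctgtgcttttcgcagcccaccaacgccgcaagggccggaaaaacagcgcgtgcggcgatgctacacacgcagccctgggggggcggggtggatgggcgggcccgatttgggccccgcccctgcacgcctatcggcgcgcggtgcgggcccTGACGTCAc
Of 32851 promoter windows of 300 bases in that table, 1.79% hold the palindrome, and among the 9 regulators the Hlf window alone did. Other motifs were searched on both strands. AGATAA for Gata factors was in a window of Erg and in 11.2% of all windows. TGACAG for TALE proteins was in a window each of Erg and Mecom and in 19.2% of all windows. TGTGGT for Runx factors was in a window each of Meis1 and Runx1 and in 16.8% of all windows. Mecom, Gata2, Runx1 and Erg have multiple windows, and the shares are per window and not per gene. The ETS motif ACCGGAAG and the PAR motif TTACGTAA, in 2.30% and 0.119% of all windows, were in none of the 9. A match is a description of the sequence and not of binding.

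Dbp and Tef, the other PAR factors, and Nfil3, a related repressor that binds the same sites, were followed beside Hlf. Dbp had 4.39 ± 0.780 FPKM with SGFD and 6.39 ± 0.387 FPKM with CD (SD, n = 3 each) and fell (log2 fold change -0.46). Tef fell as well, to 6.22 ± 0.397 FPKM with SGFD against 8.57 ± 0.188 FPKM with CD. Neither passed after quantile normalization (limma, adjusted p of 0.0944 and 0.0615). Nfil3 went the other way and rose to 3.48 ± 0.0977 FPKM with SGFD, against 1.82 ± 0.621 FPKM with CD.

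Mecom and Prdm16 are paralogous zinc-finger regulators with a PR domain, both required for stem cell maintenance in mice. Mecom had 2.56, 2.56 and 2.78 FPKM in SGFD replicates 1 to 3, against 5.37, 4.67 and 5.35 FPKM in CD replicates 1 to 3. Prdm16 had 1.34, 1.36 and 1.47 FPKM in SGFD replicates 1 to 3, against 3.06, 3.00 and 3.08 FPKM in CD replicates 1 to 3. For both genes the highest SGFD value, in replicate 3, stayed well under the lowest CD value. Mecom was 1.95-fold lower with SGFD (log2 fold change -0.75 ± 0.09, SE; limma, adjusted p = 5.70e-05). Prdm16 was 2.19-fold lower (log2 fold change -0.76 ± 0.08, SE; limma, adjusted p = 5.17e-05). These are low levels, with 444 to 474 fragments of Mecom and 233 to 252 of Prdm16 per SGFD library, and the pseudocount of 1 understates their change: with a pseudocount of 0.01 the log2 fold changes were -0.96 and -1.13. Mecom makes several proteins from separate start sites, and values per gene do not tell them apart.

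The start regions of this pair share a run of at least 24 bases, in capitals below, which is why they are shown. The Mecom window ends where the run does, so its full length is not known. The run begins at base 27 from the upstream start site of Mecom. In Prdm16 it begins at base 10 from the start site of its promoter window, which lies inside the annotated gene (chr4:154316122-154637360). The 30-base windows are chr3:30509710-30509739 and chr4:154636838-154636867, both on the minus strand of GRCm38.p6, from RefSeq.
Mecom: tctaacGCGCATGTGCGAAGGTGTCCAAAC
Prdm16: tgtGCGCATGTGCGAAGGTGTCCAAACtga
Of the 32851 promoter windows, 2 hold this run on either strand, and those are the windows of these genes. The next longest run shared by windows of different regulators, among 85 pairs compared, had 14 bases.

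Meis1 encodes a homeodomain protein of the TALE class that binds DNA together with Hox proteins. It had 22.3, 24.6 and 21.3 FPKM in SGFD replicates 1 to 3, against 36.9, 35.6 and 38.5 FPKM in CD replicates 1 to 3. SGFD replicate 2 was the closest to the CD values and still lay far under them. The mean was 1.63-fold lower with SGFD (log2 fold change -0.68 ± 0.06, SE; 95% interval -0.81 to -0.55; limma, adjusted p = 1.33e-05). Of 7 tested partners of Meis1, 4 fell and none rose, beside 41.8% of all tested genes lower. Hoxa9 fell to 10.9 ± 1.15 FPKM with SGFD, against 18.2 ± 1.20 FPKM with CD, and Hoxa10 fell to 2.15 ± 0.302 FPKM with SGFD, against 3.53 ± 0.151 FPKM with CD (SD, n = 3 each). Hoxa10 did not pass after quantile normalization (limma, adjusted p = 0.0545), and 2 of the 7 were lower after that normalization or after transcript length centring, beside 24.0% and 20.5% of all tested genes.

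Hmga2 binds AT-rich DNA with small hooks and is high in fetal and low in adult stem cells. It had 0.741, 1.07 and 0.655 FPKM in SGFD replicates 1 to 3, against 5.01, 4.53 and 5.10 FPKM in CD replicates 1 to 3. The highest SGFD value, in replicate 2, was still several times under the lowest CD value. The mean was 5.93-fold lower with SGFD (log2 fold change of FPKM + 1 of -1.70 ± 0.11, SE; limma, adjusted p = 1.06e-06), the 4th lowest log2 fold change of all tested genes. That rank is for FPKM + 1, a scale that understates the change of low genes. With a pseudocount of 0.01 the log2 fold change of Hmga2 was -2.58. The fragments behind these values numbered 61, 92 and 53 in SGFD replicates 1 to 3, against 411, 366 and 411 in CD replicates 1 to 3. Counting error alone gives a 95% Poisson interval of 0.490 to 0.856 FPKM for SGFD replicate 3. Hmga2 had at least 1 FPKM in 1 of 3 SGFD libraries, so it passed the filter on low values through CD; the other 8 regulators were above 1 FPKM in all 6 libraries.

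The Hmga2 gene lies on the minus strand at chr10:120361268-120476469. Its promoter is known for long stretches of pyrimidines, and the longest unbroken run of C and T, 23 bases, is in capitals in the 250 upstream bases, chr10:120476470-120476719 on the minus strand of GRCm38.p6, from RefSeq.
Hmga2 promoter: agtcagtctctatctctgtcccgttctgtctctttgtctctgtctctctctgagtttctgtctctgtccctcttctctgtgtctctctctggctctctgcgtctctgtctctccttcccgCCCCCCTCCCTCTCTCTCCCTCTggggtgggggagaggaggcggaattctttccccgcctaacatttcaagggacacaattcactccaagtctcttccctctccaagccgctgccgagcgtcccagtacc
C and T made up 70.8% of these bases, a share reached by 0.414% of all promoter windows, whose median was 50.0%.

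Hmga2 mRNA is also a classic target of the let-7 microRNAs, which are abundant in adult cells, and whose production the Lin28 proteins block. The libraries hold mRNA and do not measure let-7. The mature let-7a sequence from RefSeq is shown with its seed, bases 2 to 8, in capitals, above the matching sites in the 3′ untranslated region of the longest coding Hmga2 transcript (GENCODE, GRCm38), where the seed match CTACCTC is in capitals.
let-7a: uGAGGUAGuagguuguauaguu
Site at base 58: gccgacattcaatttCTACCTC
Site at base 1295: ccccactcctcaataCTACCTC
Site at base 1733: ctgatttgcaaggaaCTACCTC
Site at base 2591: aatcaaaacacactaCTACCTC
Hmga2 held 4 such matches in 3014 bases, a number that 0.0684% of 10240 tested genes with an annotated 3′ region reached. Hlf held 1 match, as 10.4% of tested genes did at least, and the other 7 regulators held none. Of the 7 genes listed for this axis, 3 passed the filter. The Lin28 genes Lin28a and Lin28b averaged under 0.1 FPKM with either diet, and Igf2bp1 was listed at 0 in all 6 libraries. Igf2bp2, which Hmga2 activates, was near the filter with 0.847 ± 0.298 FPKM with SGFD and 1.21 ± 0.447 FPKM with CD, and did not pass (limma, adjusted p = 0.196). Dicer1, the nuclease that makes mature microRNAs, fell to 6.21 ± 1.03 FPKM with SGFD, against 9.37 ± 0.710 FPKM with CD, a call lost after transcript length centring (limma, adjusted p = 0.372). The paralog Hmga1 rose, to 88.0 ± 6.89 FPKM with SGFD against 60.2 ± 3.40 FPKM with CD (SD, n = 3 each; log2 fold change 0.54), and stayed past the threshold in all 16 alternative settings tried.

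Gata2, a zinc-finger factor that stem cells need in a precise dose, had 32.6, 35.0 and 33.4 FPKM in SGFD replicates 1 to 3, against 47.8, 47.4 and 47.8 FPKM in CD replicates 1 to 3. The CD values were nearly identical and all SGFD values lay under them. Its log2 fold change was -0.49 ± 0.05 (SE; limma, adjusted p = 1.65e-05). Erg, an ETS factor of stem cells and endothelium, had 61.8, 64.6 and 57.7 FPKM in SGFD replicates 1 to 3, against 76.5, 79.7 and 77.8 FPKM in CD replicates 1 to 3. The groups did not overlap, and the spread was wider with SGFD. Its log2 fold change was -0.34 ± 0.05 (SE; limma, adjusted p = 0.000213).

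Runx1, which pairs with Cbfb and opens the blood program in the embryo, had 20.2, 22.9 and 18.9 FPKM in SGFD replicates 1 to 3, against 24.3, 23.3 and 23.1 FPKM in CD replicates 1 to 3. SGFD replicate 2 all but reached the CD values. Its log2 fold change was -0.19 ± 0.07 (SE; 95% interval -0.34 to -0.03; limma, adjusted p = 0.0400). That call was lost without SGFD replicate 1 (0.106) or SGFD replicate 3 (0.129), and without CD replicate 1 (0.123), CD replicate 2 (0.0735) or CD replicate 3 (0.0706). It was also lost after median ratio scaling, where the log2 fold change was -0.052, 26.8% of tested genes were lower and 28.8% were higher, and the direction turned to 0.12 after transcript length centring. Cbfb had 89.9 ± 4.33 FPKM with SGFD and 89.7 ± 2.62 FPKM with CD (SD, n = 3 each), with a log2 fold change of 0.00 that was 0.14 after median ratio scaling (limma, adjusted p = 0.0437) and -0.12 after quantile normalization (limma, adjusted p = 0.0285), where 24.0% of tested genes were lower and 21.3% were higher. Runx2, the bone-forming relative of Runx1, fell to 13.5 ± 1.45 FPKM with SGFD, against 20.0 ± 0.660 FPKM with CD.

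Etv6 was the most abundant of the 9 genes. It had 88.5, 89.3 and 81.3 FPKM in SGFD replicates 1 to 3, against 101, 102 and 107 FPKM in CD replicates 1 to 3. The groups stood apart by more than the spread of either. Its log2 fold change was -0.25 ± 0.05 (SE; 95% interval -0.36 to -0.15; limma, adjusted p = 0.00121). The call was lost after median ratio scaling (log2 fold change -0.12; limma, adjusted p = 0.0587), and the direction turned to 0.046 after transcript length centring.

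**Figure D2:**
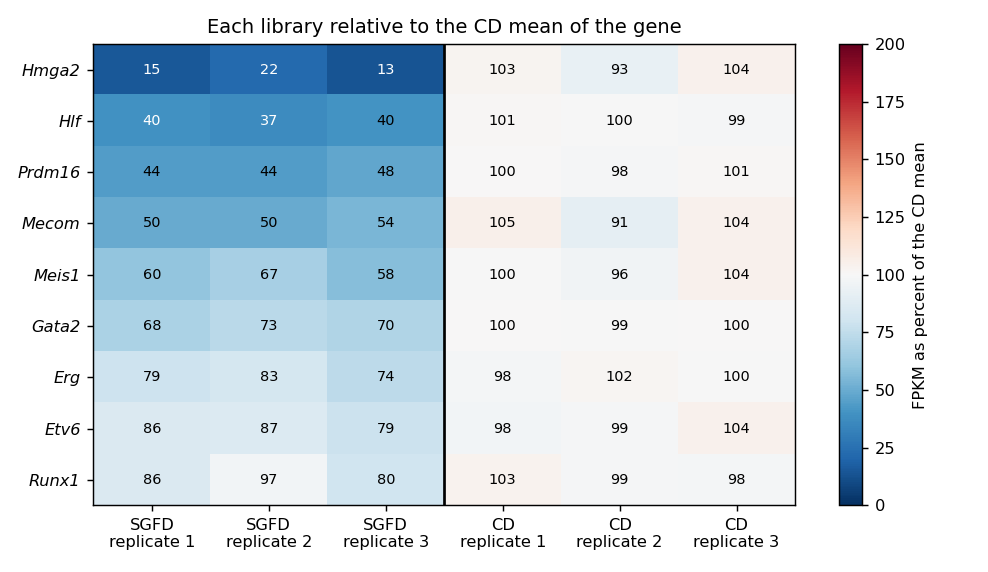
FPKM of each regulator (rows, largest fall at the top) in each library (columns, SGFD left of CD) as a percent of the CD mean of that gene. With SGFD the values run between 13.4% for Hmga2 and 97.3% for Runx1, and in CD between 91.1% and 105%, both for Mecom.

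The order of the levels changed with the diet. In SGFD libraries it ran Etv6, Erg, Gata2, Meis1, Hlf, Runx1, Mecom, Prdm16 and Hmga2, and in CD libraries Etv6, Erg, Hlf, Gata2, Meis1, Runx1, Mecom, Hmga2 and Prdm16. In SGFD libraries the ranges of Meis1 and Hlf overlapped, as did those of Hlf and Runx1, so that these 3 genes, at 22.8 ± 1.68, 21.9 ± 0.779 and 20.7 ± 2.07 FPKM (SD, n = 3), did not differ beyond their spread. In CD libraries Mecom and Hmga2 were the only neighbours whose ranges overlapped. The mean of Hlf was higher than that of 68.8% of tested genes with SGFD and 88.3% with CD, while Etv6 stood at 92.5% with SGFD and 94.7% with CD. Hmga2 was at 1.52% with SGFD and 21.8% with CD.

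Among the SGFD libraries, replicate 2 held the highest value of 6 of the 9 genes (Meis1, Hmga2, Erg, Runx1, Gata2 and Etv6), and replicate 3 that of Hlf, Mecom and Prdm16. The share of all tested genes highest in each library was not computed, so these counts are a description only. Runx1 differed 1.22-fold between the highest and lowest SGFD library and 1.05-fold between those of CD. Genes of granulocyte-monocyte progenitors (Elane, Mpo, Prtn3, Ctsg, Ms4a3, Cebpe and Gfi1) summed to 3675, 3459 and 3841 FPKM in SGFD replicates 1 to 3, lowest in replicate 2, and their part in the spread of the regulators was not tested.

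**Figure D3:**
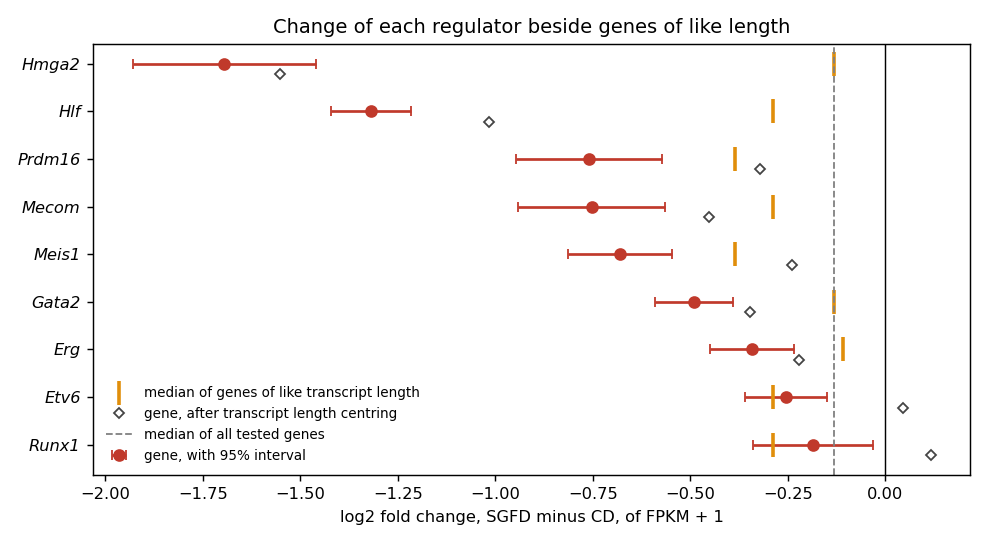
Log2 fold change of FPKM + 1, SGFD minus CD, of each regulator with its 95% interval (red), the median of genes of like transcript length (orange bars), and the value after centring by transcript length (open diamonds); the dashed line is the median of all tested genes, -0.13. The diamonds of Etv6 and Runx1 lie above 0, at 0.05 and 0.12, and the other 7 stay below 0.

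Transcript length moved with the change across all tested genes. With genes in 10 bins by their longest annotated transcript, genes of the shortest bin, around 1047 bases, had a median of 0.13 and 13.6% of them were lower. Genes of the longest bin, around 8107 bases, had a median of -0.38 and 77.5% of them were lower. Most of the regulators are long: Prdm16 (8602 bases) and Meis1 (7553 bases) fell in the longest bin, and Hlf, Mecom, Etv6 and Runx1 in the next, with a bin median of -0.29. Erg, Gata2 and Hmga2, from 3249 to 3810 bases, lay in bins with medians of -0.11 and -0.13. By the log2 fold change of FPKM + 1, Hmga2 was the lowest of the 1029 genes in its bin and Hlf the 2nd lowest of 1026 in its own. Mecom was 35th of 1026, Prdm16 76th and Meis1 132nd of 1029, whereas Etv6 was 575th and Runx1 684th of 1026, near or above the middle. When each library was centred within the length bins, 20.5% of tested genes were lower and 27.0% higher. Under that centring 7 of the 9 regulators still passed as lower: Hmga2 (-1.55), Hlf (-1.02), Mecom (-0.45), Gata2 (-0.35), Prdm16 (-0.32), Meis1 (-0.24) and Erg (-0.22). Of these Prdm16 had the highest adjusted p (limma, 0.0161).

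**Figure D4:**
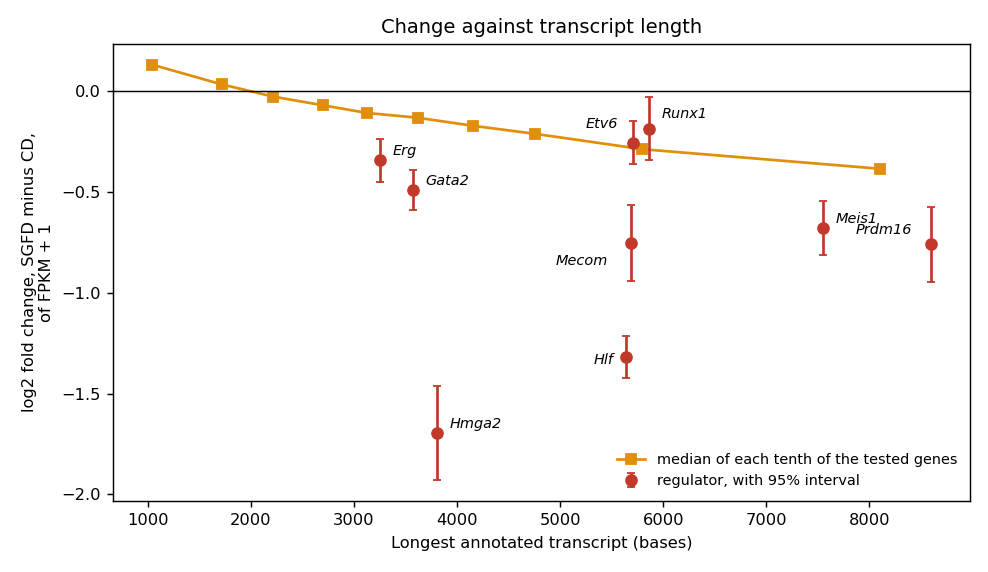
Log2 fold change of FPKM + 1, SGFD minus CD, against the longest annotated transcript in bases; red points are the 9 regulators with 95% intervals and orange squares the medians of the tested genes in 10 length bins. Hmga2 and Hlf lie far under the line of medians, and Etv6 and Runx1 lie on or above it.

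The partners of Erg, Runx1 and Gata2 were followed next. Of 8 tested partner and complex genes, 5 fell and none reached the threshold as higher (median -0.26), beside 41.8% of all tested genes lower. Tal1, the helix-loop-helix core of the complex, fell to 17.9 ± 1.28 FPKM with SGFD, against 26.2 ± 0.232 FPKM with CD (SD, n = 3 each; log2 fold change -0.53). The bridging protein gene Lmo2 fell to 232 ± 1.75 FPKM with SGFD, against 308 ± 6.73 FPKM with CD, and Ldb1, which dimerises with Lmo2, fell to 61.2 ± 3.99 FPKM with SGFD, against 75.1 ± 3.28 FPKM with CD. Fli1, the ETS factor closest to Erg, fell to 16.3 ± 1.63 FPKM with SGFD, against 19.2 ± 0.233 FPKM with CD (limma, adjusted p = 0.0204). The Fli1 call was lost after median ratio scaling (0.280), quantile normalization (0.201) and transcript length centring (0.224), and without SGFD replicate 3 (0.0564), CD replicate 2 (0.0565) or CD replicate 3 (0.0572). Lyl1 had 94.9 ± 6.16 FPKM with SGFD and 102 ± 3.20 FPKM with CD and did not pass (limma, adjusted p = 0.0855), though it did without SGFD replicate 3 (0.0268), after quantile normalization (0.00165) and with array quality weights (0.0329). After transcript length centring 3 of the 8 were lower and 1 was higher, beside 20.5% and 27.0% of all tested genes. Under that centring Tcf12, an E protein of the complex, was no longer called (limma, adjusted p = 0.781).

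Cofactors through which these proteins act were followed as well. Of 12 tested corepressor and coactivator genes, 8 fell and none rose, beside 41.8% of all tested genes lower. After transcript length centring 2 of the 12 were lower, beside 20.5% of all tested genes, so that count was no higher than the background. Those 2 were Kmt2a and Zfpm1. Kmt2a, the histone methyltransferase MLL1 that keeps Hox and Meis1 genes active, fell to 10.5 ± 0.801 FPKM with SGFD, against 25.6 ± 0.145 FPKM with CD (SD, n = 3 each; log2 fold change -1.22). Zfpm1, the Gata cofactor FOG1, fell to 24.8 ± 1.03 FPKM with SGFD, against 40.8 ± 0.906 FPKM with CD. Ep300 and Crebbp, histone acetyltransferase genes, fell by 0.50 and 0.60 on the log2 scale and did not pass after transcript length centring (limma, adjusted p of 0.464 and 0.190).

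Among relatives of the 9 genes, 8 of 11 tested fell and 2, Hmga1 and Nfil3, rose, beside 41.8% and 17.7% of all tested genes. Gata1, the erythroid Gata factor, fell to 4.70 ± 0.341 FPKM with SGFD, against 6.98 ± 0.645 FPKM with CD. Gata3 fell to 2.13 ± 0.342 FPKM with SGFD, against 3.56 ± 0.304 FPKM with CD (SD, n = 3 each). Meis2, Meis3 and Prdm1 were under the filter in every library.

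Genes reported as targets of the regulators went both ways. Of 13 tested, 8 were lower and 3 higher, beside 41.8% and 17.7% of all tested genes. After transcript length centring 5 were lower and 4 higher, beside 20.5% and 27.0%. Trib2, reported as a target of Meis1, fell to 0.304 ± 0.0853 FPKM with SGFD, against 1.35 ± 0.221 FPKM with CD, and passed the filter through CD. Pf4 and Flt3, other reported Meis1 targets, fell by 0.92 and 0.33 on the log2 scale. Kit, the stem cell factor receptor and a Gata2 target, fell to 71.4 ± 2.06 FPKM with SGFD, against 122 ± 0.843 FPKM with CD. The 3 that rose, Mpo, Csf1r and Spi1, are Runx1 targets of the myeloid lineage. Csf1r, the macrophage growth factor receptor, rose to 21.4 ± 0.326 FPKM with SGFD, against 6.37 ± 0.240 FPKM with CD, and Spi1, which encodes PU.1, rose to 75.0 ± 6.04 FPKM with SGFD, against 60.9 ± 2.02 FPKM with CD (SD, n = 3 each).

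Beyond these, 17 genes of a list of other stem cell regulators were tested, and 13 fell and 1 rose (median -0.44). The RNA-binding protein gene Msi2 fell to 23.7 ± 1.75 FPKM with SGFD, against 45.6 ± 0.918 FPKM with CD (SD, n = 3 each). Sox4 and Foxo3, transcription factors of progenitors and of stem cell quiescence, fell by 0.49 and 0.63 on the log2 scale, and Mycn fell by 1.71. Cited2, a cofactor needed for stem cell maintenance, rose to 53.0 ± 0.897 FPKM with SGFD, against 44.7 ± 1.89 FPKM with CD. After transcript length centring 7 of these 17 genes were lower and 1 was higher. Over the 7 lists of partners, relatives, cofactors, targets and other regulators together, 45 of 67 tested genes were lower and 6 higher (median -0.31), beside 41.8% lower and 17.7% higher among all tested genes. After transcript length centring 24 were lower and 8 higher, beside 20.5% and 27.0% of all tested genes. The lists were chosen with earlier results of these data known, so these counts are a description only.

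**Figure D5:**
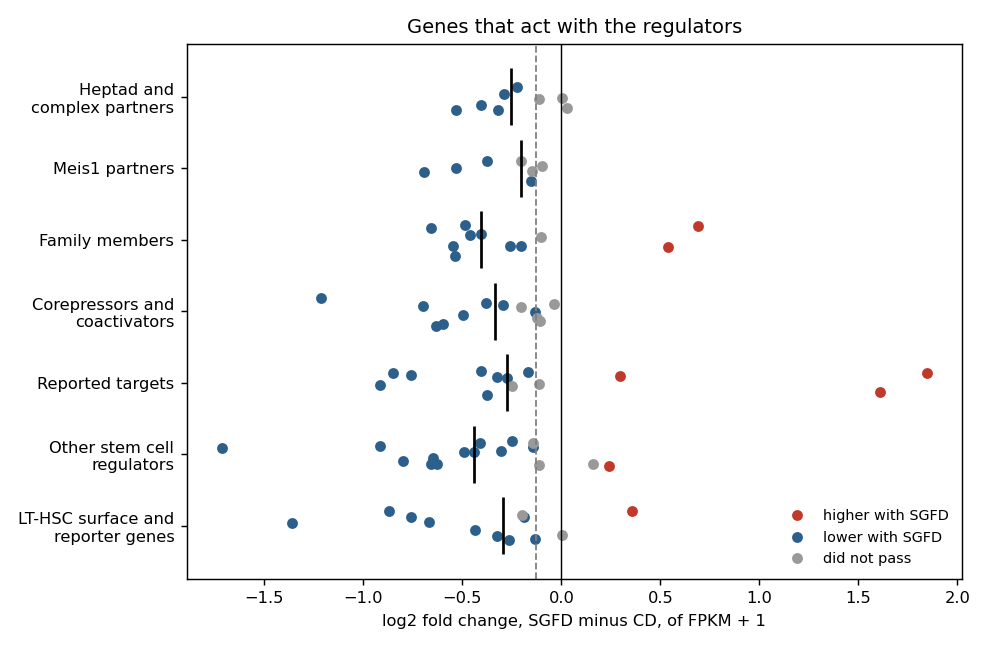
Log2 fold change of FPKM + 1, SGFD minus CD, of each tested gene (points) in 7 lists. Points are blue where lower, red where higher and grey where the test was not passed. The lists are those of partners, relatives, cofactors, targets and other regulators, without the Hmga2 axis and with the LT-HSC surface and reporter genes. Black bars are list medians and the dashed line is the median of all tested genes. Most points lie left of 0 and the points at far right are Csf1r and Mpo, at 1.61 and 1.84.

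The labelled cell type was checked with its markers. Of 12 tested LT-HSC surface and reporter genes, 9 fell and 1, Cd48, rose, beside 41.8% lower and 17.7% higher among all tested genes. Slamf1 and Ctnnal1 did not pass (limma, adjusted p of 0.988 and 0.101). Slamf1 was nearly level, at 1.77 ± 0.130 FPKM with SGFD and 1.79 ± 0.471 FPKM with CD (SD, n = 3 each). The 9 include Cd34 and Flt3, which encode antigens the gate selects against and are not marks of LT-HSCs. Cd48, which rose to 87.0 ± 1.01 FPKM with SGFD against 67.9 ± 1.19 FPKM with CD, is not such a mark either. After median ratio scaling 6 of the 12 were lower and after transcript length centring 7, beside 26.8% and 20.5% of all tested genes. The reporter gene Fgd5 fell to 1.99 ± 0.192 FPKM with SGFD, against 4.47 ± 0.536 FPKM with CD (SD, n = 3 each). The mRNAs of both antigens were present: Cd34 averaged 429 FPKM with SGFD and 471 FPKM with CD, and Flt3 averaged 90.5 FPKM with SGFD and 114 FPKM with CD. The sorted cells are therefore called by their label only. Markers of other cells moved in the same libraries. Of 7 granulocyte-monocyte progenitor genes 6 rose and none fell, and they summed to 3459 to 3841 FPKM per SGFD library, against 883 to 911 FPKM per CD library. All 5 monocyte genes rose, summing to 173 to 189 FPKM with SGFD, against 35.8 to 37.3 FPKM with CD. The 3 tested of 6 erythroid genes fell, with sums of 9.92 to 10.5 FPKM with SGFD, against 26.4 to 27.9 FPKM with CD. Lymphoid genes summed to 270 to 299 FPKM with SGFD, against 315 to 349 FPKM with CD, nearly all of it Dntt, at 284 ± 15.3 FPKM with SGFD and 322 ± 16.8 FPKM with CD (SD, n = 3 each), and the other lymphoid genes averaged under 3 FPKM with either diet. The 4 tested lymphoid genes were lower, but 2 of them, Igll1 and Cd79a, passed the filter through CD. Without any 1 CD library these 2 were under the filter and were not tested. The number of lymphoid genes lower was then 2, 1 and 2 without CD replicate 1, 2 or 3. Cd3e was at 0. Basophil and mast cell genes summed to 48.8 to 57.0 FPKM with SGFD, against 28.7 to 33.8 FPKM with CD, with 3 of 4 higher. Megakaryocyte genes summed to 49.3 to 50.9 FPKM with SGFD, against 46.9 to 51.6 FPKM with CD, with 1 of 3 higher and 1 lower. Macrophage genes were low, summing to 1.05 to 1.54 FPKM with SGFD, against 7.28 to 8.47 FPKM with CD. Their 4 tested genes passed the filter through CD and were lower. Without any 1 CD library these 4 were under the filter and were not tested, so their calls could not be checked that way. The part of these cells in the falls of the 9 regulators was not tested.

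Endothelium also makes Erg, Meis1, Mecom, Prdm16 and Gata2, and its markers were low. Cdh5 and Kdr averaged 0.148 and 0.267 FPKM with SGFD, and 0.0479 and 0.292 FPKM with CD, and Lyve1 was listed at 0 in every library. The 6 endothelial genes summed to 8.19 to 9.70 FPKM with SGFD, against 12.5 to 13.9 FPKM with CD, most of it from Emcn, which stem cells also make and which fell to 5.99 ± 0.714 FPKM with SGFD, against 11.2 ± 0.452 FPKM with CD (SD, n = 3 each). Cldn5 rose, to 1.51 ± 0.0858 FPKM with SGFD against 0.397 ± 0.183 FPKM with CD, and passed the filter through SGFD. The 4 stromal genes summed to at most 0.182 FPKM in an SGFD library and 0.732 FPKM in a CD library.

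By Pearson's r of log2(FPKM + 1) over the 6 libraries, the genes most like Hlf were Ercc4 and Shisa8, those most like Mecom were Dph7 and Bcl7a, and those most like Meis1 were Slc45a4 and 2610507B11Rik. For Prdm16 they were Pip4k2b and Mettl4, and for Hmga2 Txlna and C2cd2. These r values ran from 0.9988 to 0.9997. They are a description, since the points share the 2 diets and between 1360 and 1984 genes had an r of at least 0.95 with each of these 5 regulators.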

How the data were processed

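Per the labels' protocols, RNA was purified on micro-scale columns and mRNA libraries kept strand information. Reads were handled with StringTie, HISAT2 and fastp on mm10 or GRCm38, as the submitters' processing notes list them; versions, annotation and strand setting are not given in the sources used here. The authors deposited 1 value per gene and library, taken here as FPKM from the values themselves. A random draw took 500 genes detected in at least 1 library. Of these, 499 had values that were whole multiples of a step per gene and library, within 0.02 fragments. Genes detected in a single library fit by construction, so the 499 can include genes that could not fail. The smallest whole numbers that fit are the fragments given. FPKM summed to 464222 to 485048 in SGFD libraries and 427769 to 433592 in CD libraries, and relative depth ran from 0.983 to 1.04 of CD replicate 1.

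Groups came from the labels. Values were fitted as log2(FPKM + 1), which understates the change of low genes, with limma 3.58.1 in R 4.3.3 (trend and robust settings, two-sided) keeping genes that reached 1 FPKM in 3 or more of 6 libraries, and the fit was tested on simulated data. N-fold values divide mean FPKM by mean FPKM. Genes were called at an adjusted p of 0.05. Intervals on fragments cover counting error only. Transcript length is that of the longest GENCODE transcript of the symbol. Members of all lists were chosen with earlier results of these data known; the text names all 9 regulators, any gene of a list of up to 15, and the 4 of smallest p per direction from a longer list. Of genes annotated over the regulators, Mecom, Meis1, Prdm16, Hmga2, Runx1 and Etv6 have genes on the opposite strand, none listed as a row, and reads of such pairs cannot be told apart without the strand setting. Alternatives were 2 other filters, 2 pseudocounts, 3 other scalings, a fit with array quality weights, another with untrended moderation, a block for replicate number, each library left out in turn, and a threshold of 0.01. Some genes of the lists are counted but not reported here by name.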

Additional observations from a re-analysis of the deposited data

How the results depend on the processing

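Of the 9 regulators, Hlf, Mecom, Meis1, Prdm16, Hmga2, Erg and Gata2 stayed lower and past the threshold in every alternative that tested them; Mecom, Prdm16 and Hmga2 were not tested at a filter of 5 FPKM. Their log2 fold changes ranged from -1.36 to -1.02 for Hlf, -0.96 to -0.45 for Mecom, -0.74 to -0.24 for Meis1, -1.13 to -0.32 for Prdm16, -2.58 to -1.43 for Hmga2, -0.44 to -0.20 for Erg and -0.52 to -0.35 for Gata2. Runx1 did not pass without a filter (-0.19; limma, adjusted p = 0.0797), without a trend (-0.19; 0.0657), after median ratio scaling (-0.052) or after quantile normalization (-0.11), and turned to 0.12 after transcript length centring; the cause was not tested. Leaving out a library gave -0.26 to -0.12, and Runx1 passed only without SGFD replicate 2, at -0.26 (limma, adjusted p = 0.00334). Etv6 did not pass after median ratio scaling (-0.12) and turned to 0.046 after length centring. The number of all genes lower, 4438, became 2844 after median ratio scaling, 2552 after quantile normalization and 2179 after length centring, and the number higher, 1875, became 3054 and 2865 after the first and last of these; 29.7% of calls were higher in the fit as reported, 51.8% after median ratio scaling, 47.0% after quantile normalization and 56.8% after length centring. The median log2 fold change of all genes, -0.13, became -0.0058, -0.017 and 0.019 under these 3 scalings. List genes lower, 45, became 24 after length centring. Among 37 list genes named with their change, 27 kept their direction and side of the threshold in every alternative that tested them. Of these, Trib2, Igf2bp2 and Cldn5 were tested in 12 of the 16 alternatives, and Nfil3, Gata3 and Fgd5 in 15. Trib2 was not tested without any 1 CD library, nor Cldn5 without any 1 SGFD library. Lyl1 turned to 0.027 after median ratio scaling. Cbfb turned to -0.12 after quantile normalization, -0.034 with array weights and, leaving out a library, to between -0.036 and 0.031. The labels state no pairing by replicate number. Deviations of same-numbered libraries from their diet means correlated at -0.01, -0.23 and -0.13 over genes, and those of different-numbered libraries at -0.0948 to 0.216. Within a diet of 3 libraries these deviations are tied to each other, so they cannot show whether a pairing exists. With the replicate number as a block Runx1 alone of the 9 did not pass (-0.19; limma, adjusted p = 0.0529).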
